A study of Mus musculus with 12 samples.

Results

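The collagen, laminin and integrin genes of B16F10, an established mouse melanoma cell line, were followed across labelled knockouts of acetyltransferase genes. The acetyltransferases are p300 (gene Ep300) and CBP (gene Crebbp). Members were all protein-coding genes whose mouse symbol is that of a collagen alpha chain, a laminin alpha, beta or gamma chain, or an integrin alpha or beta chain with a numbered name, plus Itgav. These were 76 of the 54752 genes in the count table: 44 collagen, 11 laminin and 21 integrin genes. Of these, 54 had enough counts to be tested among 18434 genes (26 collagens, 8 laminins and 20 integrins). The other 22 held 0 to 84 counts each over all 12 libraries, Col6a2 being the member at 0 and Col18a1 the one at 84. They include Col3a1, Col5a2, Col6a3, Lama1, Lamb3, Lamc3 and Itgb6.

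Cells of 4 kinds were sequenced, each as 3 libraries: control cells with a wild-type genotype, cells labelled Ep300 knockout, cells labelled Crebbp knockout, and cells labelled as knockout of both genes. All groups are B16F10 grown in DMEM with serum and without any other treatment named in the labels. Whether the 3 libraries of a group were separate cultures, and whether a knockout is a clone or a pool, is not given in the sources used here, so p-values measure only the spread between these libraries, which may be technical. In a bulk culture, fewer cells making a transcript and less transcript per cell cannot be told apart, which holds for every fall given here.

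Collagens are trimers of alpha chains. Fibrillar collagens form the cables of the matrix, FACIT collagens sit on those fibrils, and network collagens such as types IV and VIII form sheets. Laminins are trimers of an alpha, a beta and a gamma chain that polymerize into basement membranes. Integrins are heterodimers of an alpha and a beta chain at the cell surface that bind collagens, laminins or RGD-containing proteins such as fibronectin. In melanoma, integrin beta 3 paired with alpha v, and integrin alpha 4 paired with beta 1, are long-studied adhesion receptors.

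Levels are CPM, which are read counts relative to the library total after scaling by the trimmed mean of M values (TMM), with the SD over 3 libraries. Changes are log2 fold changes ± SE from the edgeR quasi-likelihood F test in 1 fit over all 12 libraries, and a gene is called when its adjusted p over all genes tested is under 0.05. Libraries held 64257251 to 85604243 counts, of which members took 0.104 to 0.194%. The Crebbp transcript averaged 64.7 CPM in control, 34.5 in Crebbp knockout, 80.7 in Ep300 and 64.0 in double knockout, and the Ep300 transcript 94.4, 104, 85.1 and 148. Crebbp fell in Crebbp knockout, at -0.91 ± 0.12 (adjusted p = 0.000527). No fall of Ep300 passed the test in the Ep300 knockout libraries (adjusted p = 0.376), nor of Crebbp in the double knockout libraries (adjusted p = 0.922). In double knockout Ep300 was higher, at 0.65 ± 0.10 (adjusted p = 7.33e-05). The identity of the Ep300 and double knockout groups below therefore rests on the labels, and only Crebbp knockout has a matching fall of its transcript. The 8 melanocyte markers, which define the labelled cell type, summed to 19535 to 21483 CPM in control, 18425 to 19234 in Crebbp knockout, 14356 to 15077 in Ep300 knockout and 6548 to 6716 in double knockout. Control replicate 2 and Crebbp knockout replicate 3 were low in long transcripts: among 2850 genes with at least 7014 exonic bases, the median tested member's length, they stood at medians of -0.10 and -0.10 log2 units from their group means. Of the 22 members with at least 5 CPM they were the lowest library of their group in 20 and 19.

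To show the regulatory sequence next to genes whose transcripts moved together, the 250 bases before the annotated start site are given for 3 genes that rose in Crebbp knockout (Col8a1, Col5a1 and Itga3) and for Itga4, which fell. They come from RefSeq on GRCm38.p6, are written 5′ to 3′ on the gene's own strand, and carry in capitals every match on either strand to TGACTCA (AP-1), CATTCC (TEAD), CAGCTG (E-box), GGGCGG (Sp1/KLF) or CAGACA (SMAD). A match on the opposite strand reads as its reverse complement, so that GGGCGG then appears as CCGCCC and CAGACA as TGTCTG. No match overlaps another. Itga3 has a further annotated start whose sequence is not shown. Gene positions given below come from another annotation, GENCODE, by which Itga3 starts inside the stretch shown.
Col8a1, chr16:57754738-57754987, minus strand: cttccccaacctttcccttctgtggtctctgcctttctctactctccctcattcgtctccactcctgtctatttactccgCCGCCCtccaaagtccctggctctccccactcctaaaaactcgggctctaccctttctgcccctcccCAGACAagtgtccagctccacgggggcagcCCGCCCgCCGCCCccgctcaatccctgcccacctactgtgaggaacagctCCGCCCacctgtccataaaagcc
Col5a1, chr2:27886175-27886424, plus strand: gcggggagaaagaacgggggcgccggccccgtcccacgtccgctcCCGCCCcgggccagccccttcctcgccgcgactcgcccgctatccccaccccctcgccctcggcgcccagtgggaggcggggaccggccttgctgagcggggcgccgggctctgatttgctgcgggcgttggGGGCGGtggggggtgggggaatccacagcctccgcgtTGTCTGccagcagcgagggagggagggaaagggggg
Itga3, chr11:95076715-95076964, minus strand: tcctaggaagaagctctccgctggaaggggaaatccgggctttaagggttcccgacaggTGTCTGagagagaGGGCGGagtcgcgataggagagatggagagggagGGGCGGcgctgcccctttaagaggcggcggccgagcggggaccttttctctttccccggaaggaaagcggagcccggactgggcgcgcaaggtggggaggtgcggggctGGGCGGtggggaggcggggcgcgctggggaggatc
Itga4, chr2:79255176-79255425, plus strand: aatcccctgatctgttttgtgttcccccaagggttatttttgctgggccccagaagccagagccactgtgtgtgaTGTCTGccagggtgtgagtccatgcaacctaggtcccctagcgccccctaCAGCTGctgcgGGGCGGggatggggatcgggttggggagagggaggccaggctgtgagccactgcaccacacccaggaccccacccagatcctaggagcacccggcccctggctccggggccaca
GGGCGG stands 4 times in the Col8a1 sequence, 2 times in that of Col5a1, 3 times in that of Itga3 and once in that of Itga4. CAGACA stands once in each of these 4 sequences, and CAGCTG only in that of Itga4. Itga1, which also fell in Crebbp knockout, is not shown, and its sequence holds CAGCTG and none of the other motifs. For Col12a1 and Col1a1, which rose, and Itgb3, which fell, there was no promoter sequence to show. A table of windows from 250 bases before to 50 after a start matched 56 of the 76 members with 62 windows. GGGCGG was in 34 of the 62 member windows (54.8%) against 35.7% of all 32851 windows, CAGCTG in 22.6% against 16.3%, and CAGACA in 25.8% against 21.0%. CATTCC was in 12.9% against 14.7%, and TGACTCA in 3.23% against 5.20%. A match is a description of letters, and no binding was measured.

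Few members were called in Crebbp knockout, and 4 of the 5 that rose were collagens. In Crebbp knockout against control, 8 of the 54 tested members were called (14.8%), against 3.13% of all genes tested. The 5 that rose, against 1.52% of all genes, were Col8a1, Col12a1, Col1a1, Col5a1 and Itga3. The 3 that fell, against 1.61% of all genes, were Itga1, Itga4 and Itgb3. No laminin was called, and no collagen was called lower. The 26 tested collagens had a median log2 change of -0.17. The median change of the tested members was -0.10 on the log2 scale, against -0.01 for all genes tested.

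Col8a1 (ENSMUSG00000068196, chromosome 16, 57624258 to 57754737, minus strand, mm10) encodes the alpha 1 chain of the network collagen VIII, known from vessel walls and Descemet's membrane. It stood at 4.93, 4.79 and 5.60 CPM in control, 13.5, 12.8 and 12.8 in Crebbp knockout, 55.0, 50.1 and 51.7 in Ep300 and 69.0, 72.1 and 72.8 in double knockout. The 4 groups do not overlap, and they order as control, Crebbp knockout, Ep300 knockout, double knockout. Its log2 change was 1.35 ± 0.08 (adjusted p = 4.03e-07) in Crebbp knockout, 3.35 ± 0.08 (adjusted p = 2.7e-13) in Ep300 and 3.80 ± 0.08 (adjusted p = 1.88e-14) in double knockout. Per kb of exon, Col8a1 went from 0.652 CPM in control to 9.11 in double knockout, where it had the highest per-kb level of all collagens.

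Col12a1 (ENSMUSG00000032332, chromosome 9, 79598991 to 79718831, minus strand) encodes a FACIT collagen of the surface of collagen I fibrils. It measured 2.25, 1.54 and 2.07 CPM in control and 5.55, 5.72 and 4.30 in Crebbp knockout, with no overlap. The Ep300 knockout libraries held 12.3, 15.3 and 15.5 CPM and the double knockout libraries 18.3, 19.9 and 15.7. All Ep300 knockout and all double knockout libraries lay above all Crebbp knockout libraries. The log2 change was 1.40 ± 0.16 (adjusted p = 0.000206) in Crebbp knockout, 2.87 ± 0.16 (adjusted p = 2.76e-09) in Ep300 and 3.19 ± 0.16 (adjusted p = 2.31e-10) in double knockout, and double against Ep300 knockout did not pass the test at 0.32 ± 0.13 (adjusted p = 0.0726).

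Col5a1 (ENSMUSG00000026837, chromosome 2, 27886425 to 28039514, plus strand) encodes the main chain of collagen V, which sets the diameter of collagen I fibrils. Its control libraries held 14.9, 13.2 and 15.6 CPM, against 21.4, 21.8 and 17.2 in Crebbp knockout. Ep300 knockout libraries held 41.7, 45.1 and 52.6 CPM and double knockout libraries 68.3, 72.1 and 67.4. All 4 groups are separate, although the lowest Crebbp knockout library, replicate 3, lies close to the highest control. The change was 0.46 ± 0.10 (adjusted p = 0.0264) in Crebbp knockout, 1.67 ± 0.10 (adjusted p = 1.41e-08) in Ep300 and 2.25 ± 0.11 (adjusted p = 1.49e-10) in double knockout. The Crebbp knockout call was kept in 13 of 20 alternative settings. It ended, with adjusted p up to 0.113, when any 1 control library, or Crebbp knockout replicate 1 or 2, was left out.

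Col1a1 (ENSMUSG00000001506, chromosome 11, 94936224 to 94953042, plus strand) encodes the alpha 1 chain of collagen I, the most abundant fibrillar collagen. It was at 2.53, 2.33 and 2.93 CPM in control, 5.40, 3.76 and 3.50 in Crebbp knockout, 12.4, 12.4 and 16.6 in Ep300 and 7.88, 9.07 and 7.49 in double knockout. The groups do not overlap, and, unlike for Col8a1, double knockout lies below Ep300 knockout. Changes against control were 0.70 ± 0.17 (adjusted p = 0.0426), 2.40 ± 0.17 (adjusted p = 6.09e-08) and 1.64 ± 0.17 (adjusted p = 1.32e-06) in Crebbp, Ep300 and double knockout. Its call in Crebbp knockout was kept in 8 of 20 alternative settings, the fewest among the 5 members that rose, with adjusted p up to 0.169. It ended without any 1 control library, any 1 double knockout library, Crebbp knockout replicate 1 or 2, or Ep300 knockout replicate 2. The call also ended with limma-voom (adjusted p = 0.103), the replicate block (0.0915) and only the groups compared (0.0910).

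**Figure D1:**
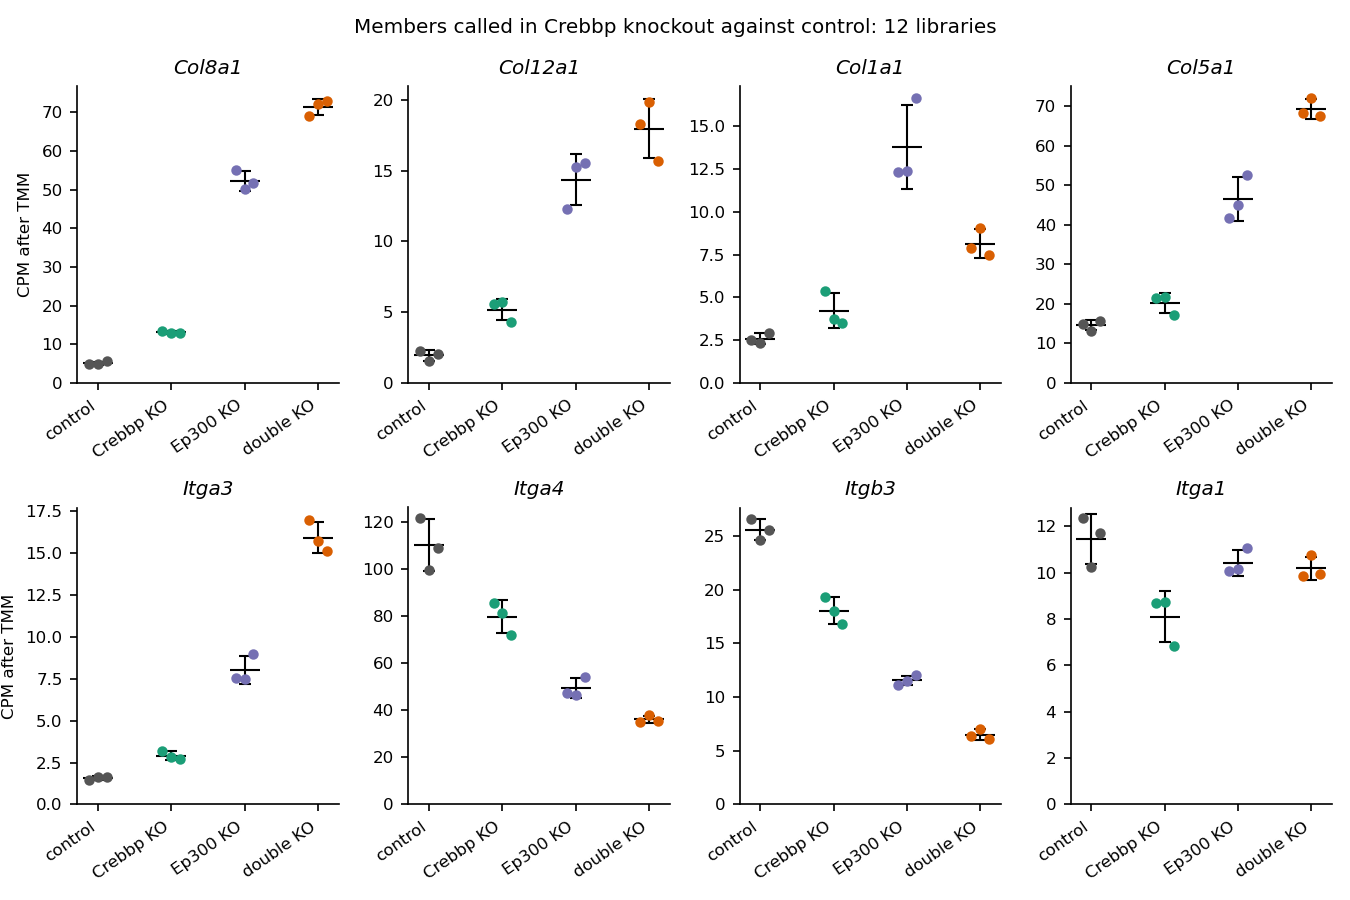
CPM after TMM (y axis, linear, from 0) of the 8 members called in Crebbp knockout against control, by group (x axis), with 1 point for each of 12 libraries and bars for the mean ± SD of 3. Col8a1, Col12a1, Col5a1 and Itga3 step up from control through Crebbp and Ep300 to double knockout, Itga4 and Itgb3 step down in the same order, Col1a1 is highest in Ep300 knockout, and Itga1 is lowest in Crebbp knockout.

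Among integrins, Itga3 (ENSMUSG00000001507, chromosome 11, 95044474 to 95076801, minus strand), the alpha chain of the laminin receptor alpha 3 beta 1, rose in Crebbp knockout. It stood at 1.46, 1.64 and 1.65 CPM in control, 3.20, 2.85 and 2.70 in Crebbp knockout, 7.56, 7.51 and 8.99 in Ep300 and 16.9, 15.7 and 15.1 in double knockout, with no overlap between any 2 groups. The log2 changes were 0.89 ± 0.12 (adjusted p = 0.000828), 2.34 ± 0.11 (adjusted p = 7.87e-10) and 3.33 ± 0.11 (adjusted p = 3.6e-12). Itga3 and Col1a1 lie 91431 bases apart on chromosome 11, on opposite strands.

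Itga4 (ENSMUSG00000027009, chromosome 2, 79255426 to 79333123, plus strand), the alpha chain of the receptor for VCAM1 and fibronectin, fell. Control libraries held 122, 99.6 and 109 CPM, Crebbp knockout 85.7, 81.5 and 72.1, Ep300 knockout 47.5, 46.4 and 54.1 and double knockout 35.1, 37.8 and 35.4, again without overlap. The log2 changes were -0.47 ± 0.09 (adjusted p = 0.01), -1.16 ± 0.09 (adjusted p = 1.64e-07) and -1.61 ± 0.09 (adjusted p = 1.16e-09). Of its exonic bases, 8.04% are shared with the antisense gene Cerkl, and the strand setting of the counting is not given in the sources used here.

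Itgb3 (ENSMUSG00000020689, chromosome 11, 104608000 to 104670476, plus strand), the beta chain of alpha v beta 3, the vitronectin receptor linked to the vertical growth of melanoma, fell alongside. It went from 26.6, 24.7 and 25.5 CPM in control to 19.3, 18.0 and 16.8 in Crebbp knockout, 11.2, 11.5 and 12.0 in Ep300 and 6.39, 7.06 and 6.08 in double knockout. Each group lies wholly below the one before it in that order. The log2 changes were -0.50 ± 0.08 (adjusted p = 0.00218), -1.15 ± 0.08 (adjusted p = 4.14e-08) and -1.98 ± 0.08 (adjusted p = 2.91e-11).

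Itga1 (ENSMUSG00000042284, chromosome 13, 114953096 to 115101964, minus strand), the alpha chain of the collagen receptor alpha 1 beta 1, is the only one of the 8 that was called in Crebbp knockout and in neither other group against control. Its libraries held 12.4, 10.2 and 11.7 CPM in control, 8.69, 8.75 and 6.81 in Crebbp knockout, 10.0, 10.1 and 11.1 in Ep300 and 9.83, 10.7 and 9.95 in double knockout. The Crebbp knockout libraries lie below all others, while control overlaps both other groups. The log2 change was -0.50 ± 0.10 (adjusted p = 0.0175) in Crebbp knockout, -0.14 ± 0.10 (adjusted p = 0.446) in Ep300 and -0.17 ± 0.10 (adjusted p = 0.183) in double knockout, and the tests of the difference gave 0.37 ± 0.10 (adjusted p = 0.0287) for Ep300 against Crebbp knockout and 0.33 ± 0.10 (adjusted p = 0.0177) for double against Crebbp knockout. The Crebbp knockout call ended without control replicate 1 (adjusted p = 0.0698) or 3 (adjusted p = 0.067). The Ep300 against Crebbp knockout call ended without Ep300 knockout replicate 2 (0.0583) or 3 (0.0789) or Crebbp knockout replicate 3 (0.097). The double against Crebbp knockout call ended without Crebbp knockout replicate 3 (0.085) or double knockout replicate 2 (0.0719). The lowest Crebbp knockout library, replicate 3, is also the one low in long transcripts, and the part of that in the value was not tested.

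The count of 8 called members in Crebbp knockout fell to 5 when control replicate 1, or control replicate 3, was left out, and also when only the 6 libraries of the comparison were fitted. The 3 lost each time were Col1a1, Col5a1 and Itga1. Col8a1, Col12a1, Itga3, Itga4 and Itgb3 were called in all 20 alternative settings. Across all 12 libraries, the members whose log2 levels were most like those of Col8a1 were Col12a1 (Pearson r = 0.987), Col5a1 (0.977) and Itga3 (0.976), and those most like Col12a1 were Col8a1, Col5a1 (0.970) and Itga3 (0.961). These are descriptions over libraries that share their 4 groups.

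More of the family was called in Ep300 knockout, in both directions. In Ep300 knockout against control, 26 of 54 members were called (48.1%), against 16.1% of all genes tested. Of these, 14 rose, against 7.27% of all genes, and 12 fell, against 8.83%. Collagens split into 6 higher and 7 lower, laminins into 4 higher and 1 lower, and integrins into 4 and 4. The median change was -0.10, against 0.01 for all genes. Each comparison with control uses the same 3 control libraries.

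Most members were called in double knockout. In double knockout against control, 34 of 54 were called (63.0%), against 49.4% of all genes tested, so the background is itself high. Here 18 rose, against 24.7% of all genes, and 16 fell, against 24.6%, with a median change of 0.07 against -0.02 for all genes. Collagens gave 6 higher and 9 lower, laminins 5 and 1, and integrins 7 and 6. Between knockout groups, 23 members differed between double and Ep300 knockout (11 higher and 12 lower in double knockout, 42.6% of those tested, against 34.6% of all genes), with shares of 18% higher and 16.6% lower among all genes. Double and Crebbp knockout differed in 35 (19 higher and 16 lower, 64.8%, against 43.2%, or 21.4% and 21.8%, of all genes). Ep300 and Crebbp knockout differed in 23 (13 higher and 10 lower in Ep300 knockout, 42.6%, against 13.6%, or 6.26% and 7.37%, of all genes).

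**Figure D2:**
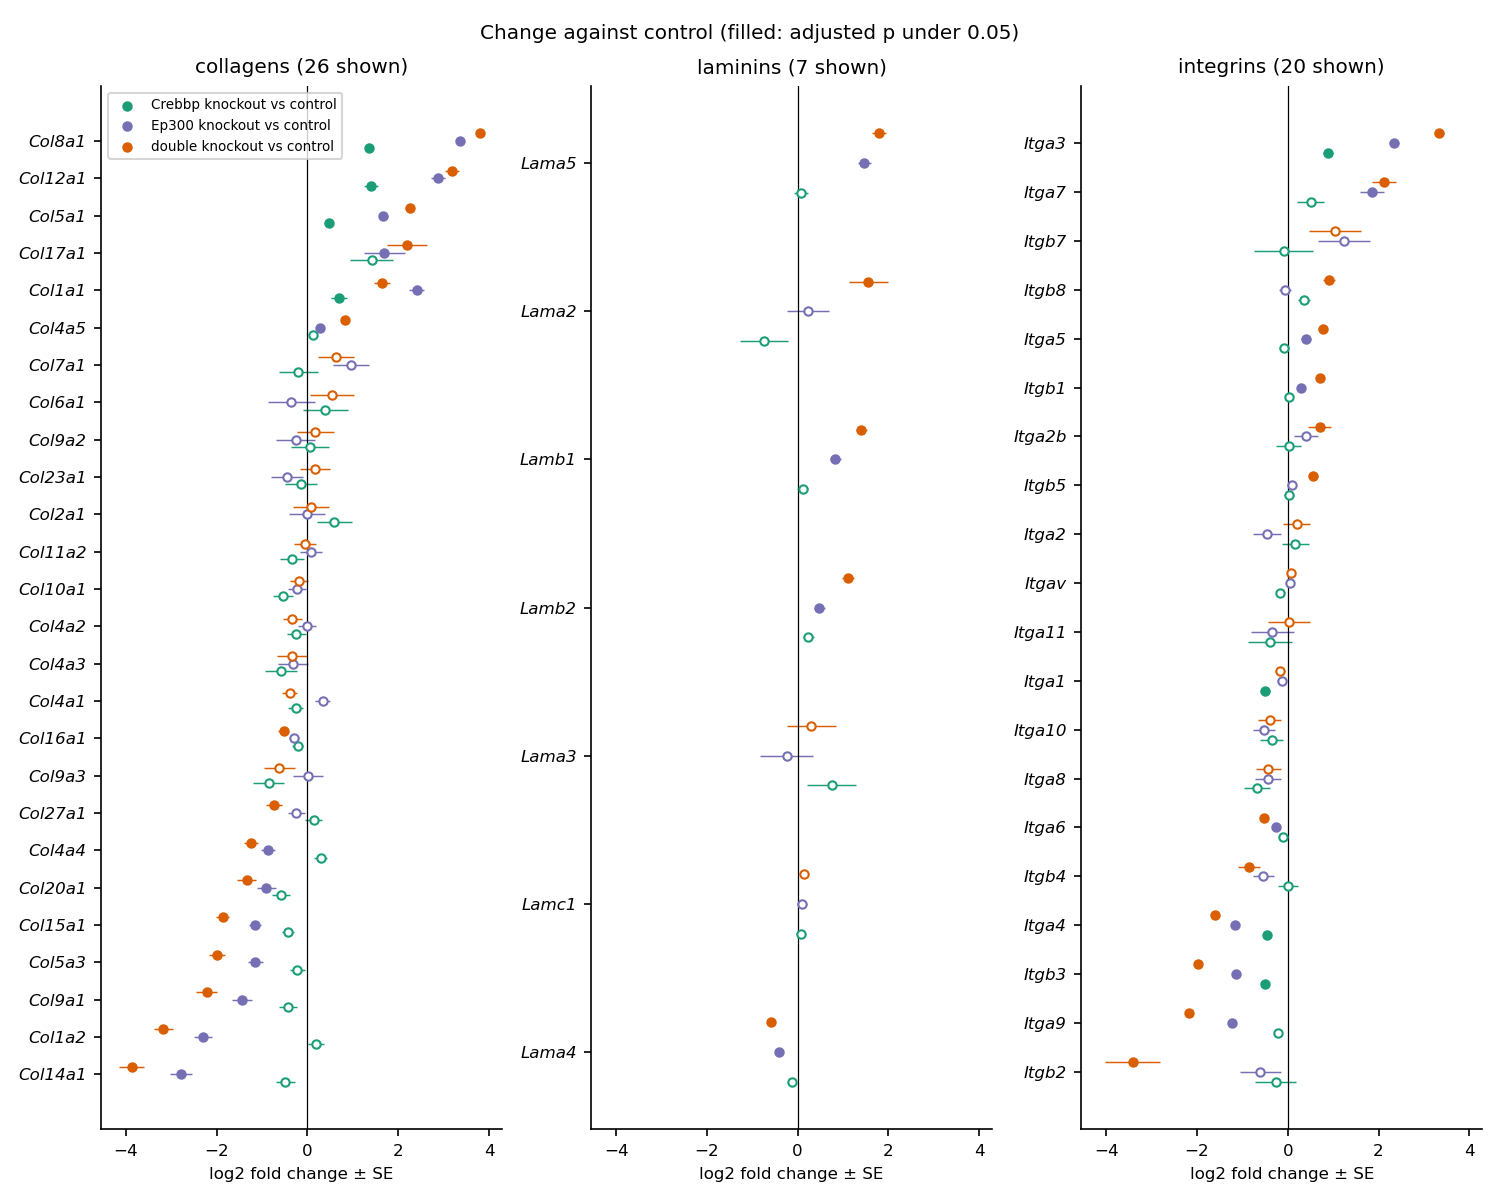
Log2 fold change against control ± SE (x axis) for 53 of the 54 tested members (y axis, ordered by double knockout), in panels of 26 collagens, 7 laminins and 20 integrins, with 1 colour per knockout group and filled points for adjusted p under 0.05. Crebbp knockout points lie mostly near 0, and the Ep300 and double knockout points reach from below -2 (Col14a1, Col1a2) to above 3 (Col8a1).

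Summed over all 44 collagens, levels were 77.8 ± 5.49 CPM in control, 92.9 ± 7.50 in Crebbp knockout, 169 ± 11.7 in Ep300 and 210.1 ± 6.02 in double knockout. The 11 laminins summed to 193 ± 20.0, 198 ± 22.0, 219 ± 29.1 and 250.2 ± 11.9 CPM in the same order. The 21 integrins summed to 983 ± 50.3, 927 ± 37.3, 1017 ± 49.9 and 1231 ± 31.4 CPM. These sums are descriptions without a test, and they weigh genes by their level. Col8a1 and Col5a1 held the highest CPM among collagens in double knockout. The median log2 change of the 26 tested collagens was -0.24 in Ep300 and -0.26 in double knockout, so the rise of the sum is not one of collagens as a family.

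Both chains of collagen I changed in Ep300 knockout, in opposite directions. Col1a2 (ENSMUSG00000029661, chromosome 6, 4504814 to 4541544, plus strand), the alpha 2 chain that joins 2 alpha 1 chains in the usual collagen I trimer, is named after its values were seen. It was at 3.61, 3.04 and 3.40 CPM in control and 4.48, 3.70 and 3.21 in Crebbp knockout, which overlap. Ep300 knockout libraries held 0.611, 0.824 and 0.607 CPM and double knockout libraries 0.283, 0.319 and 0.503, all below both other groups. The log2 change was 0.18 ± 0.17 (adjusted p = 0.629) in Crebbp knockout, -2.30 ± 0.20 (adjusted p = 6.97e-07) in Ep300 and -3.18 ± 0.21 (adjusted p = 1.05e-08) in double knockout. Per kb of exon, the ratio of Col1a1 to Col1a2 was 1.47 ± 0.153 in control, 2.09 ± 0.181 in Crebbp knockout, 39.5 ± 11.8 in Ep300 and 44.9 ± 14.5 in double knockout. This pair and the 3 pairs below were chosen after their values were seen, so their ratios are descriptions without a test.

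Collagen V showed the same kind of split. Col5a3, a minor chain of collagen V, was at 3.71, 3.36 and 3.62 CPM in control and 3.54, 3.18 and 2.39 in Crebbp knockout, which overlap. It was at 1.43, 1.43 and 1.95 in Ep300 knockout and 0.783, 0.862 and 1.04 in double knockout, 2 groups that are separate from each other and from the rest. The change was -1.15 ± 0.17 (adjusted p = 0.000185) in Ep300 knockout and -1.99 ± 0.18 (adjusted p = 2.97e-07) in double knockout, and in Crebbp knockout it was -0.23 ± 0.16 (adjusted p = 0.501). The ratio of Col5a1 to Col5a3 per kb went from 3.28 ± 0.165 in control to 5.36 ± 0.473 in Crebbp knockout, 23.4 ± 1.84 in Ep300 and 63.1 ± 9.58 in double knockout.

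**Figure D3:**
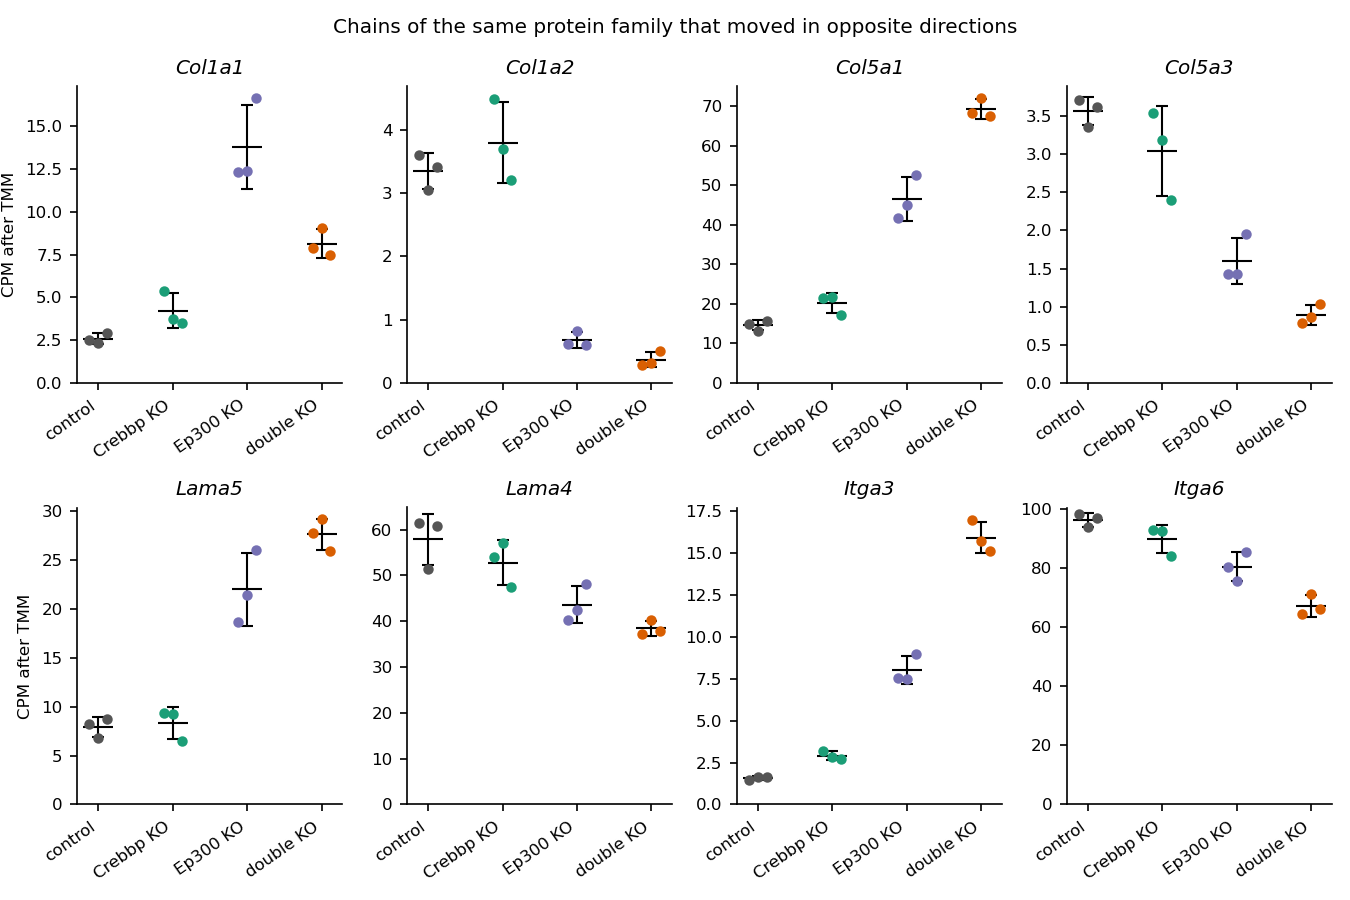
CPM after TMM (y axes, linear, from 0) of 4 pairs of chains by group, with 1 point per library and bars for the mean ± SD of 3 libraries. In each pair the first gene (Col1a1, Col5a1, Lama5, Itga3) is higher and the second (Col1a2, Col5a3, Lama4, Itga6) lower in Ep300 and double knockout than in control.

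The FACIT collagens went in both directions as well. Against the rise of Col12a1, Col14a1, the FACIT collagen also called undulin, named after its values were seen, was at 3.21, 3.34 and 3.12 CPM in control and 2.00, 2.09 and 2.82 in Crebbp knockout. It was at 0.486, 0.363 and 0.548 in Ep300 knockout and 0.120, 0.189 and 0.342 in double knockout. Ep300 and double knockout lie far below control without overlap, and all Crebbp knockout libraries lie between them and control. The changes were -2.79 ± 0.25 (adjusted p = 7.96e-07) in Ep300 knockout, -3.88 ± 0.27 (adjusted p = 1.49e-08) in double knockout and -0.49 ± 0.21 (adjusted p = 0.247) in Crebbp knockout, the last of which did not pass the test. Col9a1, a FACIT chain of cartilage collagen IX, fell by the test with -1.45 ± 0.22 in Ep300 and -2.22 ± 0.23 in double knockout, and Col20a1 likewise with -0.91 and -1.34. Col16a1 was called against control in double knockout, at -0.53 ± 0.12 (adjusted p = 0.0016), and not in either single knockout. It was at -0.30 ± 0.12 (adjusted p = 0.105) in Ep300 knockout and -0.22 ± 0.12 (adjusted p = 0.355) in Crebbp knockout. Its difference between double and Ep300 knockout did not pass the test.

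Basement membrane collagen IV did not move as a unit. Col4a1 and Col4a2, the chains of the common collagen IV trimer, are divergent neighbours whose annotated starts lie 21 bases apart. Col4a1 held 3.33, 2.59 and 3.40 CPM in control, 2.73, 2.49 and 2.60 in Crebbp knockout, 3.67, 3.28 and 4.81 in Ep300 and 2.51, 1.91 and 2.70 in double knockout. Control overlaps all other groups, and the change was 0.33 ± 0.16 (adjusted p = 0.211) in Ep300 and -0.39 ± 0.17 (adjusted p = 0.0646) in double knockout. Double knockout was lower than Ep300 knockout, at -0.72 ± 0.16 (adjusted p = 0.0037). Col4a2 held 3.10, 2.29 and 2.66 CPM in control, 2.80, 2.43 and 1.54 in Crebbp knockout, 2.07, 2.71 and 3.23 in Ep300 and 2.40, 2.17 and 1.85 in double knockout. All of its groups overlap control, at -0.33 ± 0.21 (adjusted p = 0.208) for double knockout. Col4a1 was called lower in double knockout in 6 of 20 alternative settings, with adjusted p from 0.00136 to 0.257 over the 20. These were no filter, the replicate block, the offsets below, and leaving out control replicate 2, Ep300 knockout replicate 3 or double knockout replicate 3. With offsets for exon length and GC content, which were added after the data were seen, both chains were called lower, with -0.67 (adjusted p = 0.00136) for Col4a1 and -0.67 (adjusted p = 0.00229) for Col4a2.

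Col4a5, a chain of the kidney and epidermal collagen IV networks, is the basement membrane collagen with the highest level per kb in control (1.98 CPM). It held 13.4, 13.4 and 13.0 CPM in control, 14.9, 15.0 and 13.2 in Crebbp knockout, 16.5, 14.5 and 17.1 in Ep300 and 22.2, 24.3 and 24.1 in double knockout. Double knockout lies above all other libraries. The change was 0.82 ± 0.08 (adjusted p = 7.66e-07) in double and 0.27 ± 0.08 (adjusted p = 0.0313) in Ep300 knockout, the latter lost without any 1 control library (adjusted p 0.0526 to 0.105) or without Ep300 knockout replicate 1 (0.081) or 3 (0.112). Col4a4, which assembles with alpha 3 and alpha 5 chains, fell by the test at -0.87 ± 0.15 (adjusted p = 0.000646) in Ep300 and -1.24 ± 0.15 (adjusted p = 7.02e-06) in double knockout.

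Of the remaining tested collagens, Col15a1, a multiplexin of basement membrane zones, fell in Ep300 (-1.15 ± 0.13) and double knockout (-1.87 ± 0.14). It stood at -0.44 ± 0.13 (adjusted p = 0.0887) in Crebbp knockout, with all libraries below control. There it was called with DESeq2, without control replicate 2, and with the offsets for exon length and GC content. Col17a1, the transmembrane collagen of hemidesmosomes, rose from 0.0696 CPM in control to 0.222 in Ep300 and 0.312 in double knockout, at 1.70 ± 0.46 (adjusted p = 0.0184) and 2.19 ± 0.44 (adjusted p = 0.000772). Its Ep300 knockout call ended without control replicate 1 (adjusted p = 0.0673) or 3 (0.0884) or Ep300 knockout replicate 3 (0.0567). Crebbp knockout libraries held 0.217, 0.164 and 0.167 CPM of Col17a1, all above control. That change of 1.42 was the highest of all tested members in Crebbp knockout, and it did not pass the test. The control libraries held only 5, 6 and 3 counts of Col17a1. Col27a1, a fibrillar collagen, was called against control in double knockout alone, at -0.74 ± 0.18 (adjusted p = 0.00368). Its difference between double and Ep300 knockout did not pass the test. No test was passed against control by Col2a1, Col4a1, Col4a2, Col4a3, Col6a1, Col7a1, Col9a2, Col9a3, Col10a1, Col11a2 and Col23a1.

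Of the 8 tested laminin chains 4 rose and 1 fell in Ep300 knockout (62.5% called, against 16.1% of all genes). None was called in Crebbp knockout, where 3.13% of all genes were. Lama5 (ENSMUSG00000015647, chromosome 2, 180176373 to 180225859, minus strand), the alpha chain of most epithelial basement membranes, was at 8.28, 6.75 and 8.78 CPM in control and 9.38, 9.21 and 6.48 in Crebbp knockout, which overlap. Ep300 knockout libraries held 18.6, 21.4 and 26.0 and double knockout 27.7, 29.1 and 25.9 CPM, all above both other groups, and the highest Ep300 library overlaps double knockout. The change was 1.47 ± 0.15 (adjusted p = 2.81e-06) in Ep300, 1.79 ± 0.15 (adjusted p = 9.09e-08) in double and 0.07 ± 0.15 (adjusted p = 0.837) in Crebbp knockout. Lama4, the alpha chain of vessel wall laminins, fell. It held 61.5, 51.5 and 60.7 CPM in control, 54.0, 57.0 and 47.5 in Crebbp knockout, 40.3, 42.5 and 48.1 in Ep300 and 37.1, 40.3 and 37.9 in double knockout. Ep300 and double knockout lie below all control libraries, at -0.41 ± 0.09 (adjusted p = 0.00477) and -0.59 ± 0.09 (adjusted p = 6.96e-05). The ratio of Lama5 to Lama4 per kb was 0.145 ± 0.00734 in control, 0.167 ± 0.0201 in Crebbp knockout, 0.531 ± 0.0416 in Ep300 and 0.761 ± 0.0343 in double knockout.

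The beta chains rose by steps. Lamb1, the most widely used laminin beta chain, was at 14.2, 12.8 and 14.7 CPM in control, 16.4, 16.9 and 11.6 in Crebbp knockout, 21.9, 24.6 and 27.4 in Ep300 and 36.9, 38.2 and 35.3 in double knockout. Control overlaps Crebbp knockout, while Ep300 and double knockout are separate from both and from each other. The change was 0.83 ± 0.12 (adjusted p = 0.000166) in Ep300 and 1.40 ± 0.12 (adjusted p = 1.97e-07) in double knockout, and 0.58 ± 0.12 (adjusted p = 0.00185) between them. Lamb2, the beta chain of synaptic and kidney laminins, held 19.6, 17.0 and 21.3 CPM in control, 24.1, 25.4 and 18.8 in Crebbp, 23.1, 25.8 and 31.8 in Ep300 and 43.5, 43.2 and 38.8 in double knockout. Double knockout lies above all other libraries, and Crebbp knockout overlaps control. The change was 1.11 ± 0.13 (adjusted p = 3.91e-06) in double knockout and 0.48 ± 0.13 (adjusted p = 0.0162) in Ep300 knockout, where the call ended without control replicate 2 (adjusted p = 0.062) or Ep300 knockout replicate 3 (0.0761).

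Lamc1, the gamma chain shared by most laminins, has the highest laminin level per kb in control (11.3 CPM, against 4.80 for Lama4, 3.17 for Lamb2 and 1.40 for Lamb1). It held 102, 81.5 and 97.1 CPM in control, 104, 104 and 87.8 in Crebbp, 87.6, 97.6 and 115 in Ep300 and 101, 110.1 and 99.1 in double knockout, 4 groups that overlap. Its changes were 0.07 ± 0.11 (adjusted p = 0.755), 0.10 ± 0.11 (adjusted p = 0.611) and 0.15 ± 0.11 (adjusted p = 0.274), none of which passed the test. Lama2, the alpha chain of muscle laminin, was called against control in double knockout alone, at 1.56 ± 0.42 (adjusted p = 0.00673), and Lama3 in no group.

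Integrin beta chains went both ways. Itgb1 (ENSMUSG00000025809, chromosome 8, 128685654 to 128733200, plus strand), the common partner of the collagen- and laminin-binding alpha chains, has the highest level of all members per kb (132 CPM in control and 215 in double knockout). It was at 557, 524 and 530.4 CPM in control, 558, 534 and 541 in Crebbp knockout, 673, 622 and 675 in Ep300 and 845, 884 and 908 in double knockout. Crebbp knockout overlaps control, and Ep300 and double knockout lie above all of these and apart from each other. The change was 0.29 ± 0.07 (adjusted p = 0.00974) in Ep300, 0.71 ± 0.07 (adjusted p = 9.7e-07) in double and 0.02 ± 0.07 (adjusted p = 0.918) in Crebbp knockout, and the Ep300 knockout call ended when only its 6 libraries were fitted (adjusted p = 0.0631). While Itgb3 fell, Itgb5 and Itgb8, other partners of alpha v, rose in double knockout, at 0.55 ± 0.11 (adjusted p = 0.000561) and 0.92 ± 0.13 (adjusted p = 3.22e-05). Itgb8 held 5.55, 4.93 and 5.47 CPM in control, 7.72, 7.02 and 5.65 in Crebbp knockout, 5.46, 4.32 and 5.47 in Ep300 and 10.9, 10.5 and 8.81 in double knockout. Ep300 knockout overlaps control, Crebbp knockout lies just above it without passing the test (0.35 ± 0.13 (adjusted p = 0.168)), and double knockout lies above all other libraries. Itgb4, the beta partner of alpha 6 in hemidesmosomes, was lower in double knockout at -0.85 ± 0.24 (adjusted p = 0.00738). Itgb2, the leukocyte beta chain, summed to 28 counts in the 3 control libraries and 3 in the double knockout libraries, a ratio of 0.0976 (95% exact interval 0.0190 to 0.316, for counting error only), and its expression is near the limit of detection.

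Itgav, the alpha chain shared by these receptors, did not pass the test against control. It held 155, 125 and 146 CPM in control, 136, 133 and 113 in Crebbp, 144, 141 and 157 in Ep300 and 148, 156 and 144 in double knockout. All groups overlap control, with changes of -0.16 ± 0.09 (adjusted p = 0.38), 0.05 ± 0.09 (adjusted p = 0.768) and 0.07 ± 0.09 (adjusted p = 0.532). Of the other RGD-binding alpha chains, Itga5, the fibronectin receptor chain, was at 0.41 ± 0.10 (adjusted p = 0.0133) in Ep300 and 0.77 ± 0.10 (adjusted p = 2.12e-05) in double knockout. Its Ep300 knockout call ended without control replicate 2 (adjusted p = 0.0518) or Ep300 knockout replicate 3 (0.0617). Itga2b, the platelet chain, was called against control in double knockout alone, at 0.70 ± 0.25 (adjusted p = 0.0317), a call that ended without control replicate 1 (0.153) or 3 (0.0826) or any 1 double knockout library (0.0523 to 0.0782). The Ep300 knockout libraries of Itga2b held 1.03, 0.751 and 0.703 CPM and overlap double knockout, at 0.957, 1.04 and 1.06. Its difference between these groups did not pass the test. Itga8 was called in no group against control.

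Itga9 (ENSMUSG00000039115, chromosome 9, 118606690 to 118901003, plus strand), whose product binds tenascin C and VCAM1 and belongs with alpha 4 to 1 subfamily, fell further than Itga4 in double knockout. It held 20.0, 17.4 and 18.4 CPM in control, 15.5, 16.4 and 16.2 in Crebbp knockout, 7.85, 7.26 and 8.59 in Ep300 and 4.10, 4.51 and 3.82 in double knockout. All 4 groups are separate. The changes were -1.24 ± 0.09 (adjusted p = 6.98e-08) in Ep300 and -2.17 ± 0.09 (adjusted p = 4.78e-11) in double knockout, and -0.22 ± 0.09 (adjusted p = 0.193) in Crebbp knockout, which did not pass the test.

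Among laminin-binding alpha chains Itga6 fell while Itga3 and Itga7 rose in Ep300 and double knockout. Itga6 held 98.5, 93.9 and 97.2 CPM in control, 93.0, 92.6 and 84.3 in Crebbp, 80.5, 75.7 and 85.5 in Ep300 and 64.4, 71.4 and 66.1 in double knockout. Each group lies wholly below control, but Ep300 knockout overlaps Crebbp knockout. The change was -0.26 ± 0.07 (adjusted p = 0.0145) in Ep300, -0.52 ± 0.07 (adjusted p = 1.54e-05) in double and -0.10 ± 0.07 (adjusted p = 0.463) in Crebbp knockout. The Ep300 knockout call ended without control replicate 1 (adjusted p = 0.0544) or Ep300 knockout replicate 2 (0.0775). The ratio of Itga3 to Itga6 per kb was 0.0260 ± 0.00224 in control, 0.0512 ± 0.00296 in Crebbp knockout, 0.157 ± 0.00895 in Ep300 and 0.375 ± 0.0359 in double knockout, so that Itga6 had the higher level per kb in every group. Itga7, the muscle laminin receptor chain, went from 0.236 CPM in control to 0.855 in Ep300 and 1.02 in double knockout, at 1.86 ± 0.27 (adjusted p = 0.000128) and 2.11 ± 0.26 (adjusted p = 9.32e-06). Of the collagen receptors, only Itga1 was called against control, and Itga2, Itga10 and Itga11 in no group. Itga10 lay below all control libraries in every knockout group without passing the test. Of its exonic bases, 33.5% are shared on the same strand with Gm42957, and how reads there were counted is not given in the sources used here.

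For 8 members the double knockout differed from the sum of both single changes on the log2 scale, 14.8% of the 54 tested, against 10.3% of all genes tested. Departures were positive in 3 (5.33% of all genes) and negative in 5 (4.96%). For 3 of the 4 collagens that rose in Crebbp knockout, the step from Ep300 to double knockout was smaller than that rise. The Crebbp transcript averaged 64.0 CPM in double knockout and 34.5 in Crebbp knockout. The same loss of CBP in both comparisons therefore rests on the labels. For Col8a1, double knockout added 0.45 ± 0.07 to Ep300 knockout, against 1.35 ± 0.08 of Crebbp knockout over control, a departure of -0.90 ± 0.10 (adjusted p = 5.17e-05). Col12a1 departed by -1.08 ± 0.21 (adjusted p = 0.00409) and Col1a1 by -1.46 ± 0.23 (adjusted p = 0.000985), and for Col1a1 double knockout was below Ep300 knockout (-0.76 ± 0.15 (adjusted p = 0.00168)). Col5a1 and Itga3 showed no such departure beyond their error, at 0.11 ± 0.14 (adjusted p = 0.672) and 0.10 ± 0.15 (adjusted p = 0.726). Itga9 departed by -0.71 ± 0.13 (adjusted p = 0.00227) and Col1a2 by -1.06 ± 0.30 (adjusted p = 0.0337), both towards a larger fall in double knockout.

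The positive departures were those of Itgb1 (0.40 ± 0.10 (adjusted p = 0.0194)), Col4a5 (0.44 ± 0.11 (adjusted p = 0.024)) and Itgb8 (0.63 ± 0.18 (adjusted p = 0.0406)). The first 2 of these rose in Ep300 knockout as well, by 0.29 ± 0.07 and 0.27 ± 0.08. The calls on Col8a1, Col12a1, Col1a1 and Itga9 were kept in all 19 alternatives run. That on Col1a2 ended in 9, that on Itgb8 in 7, that on Col4a5 in 6 and that on Itgb1 in 4. The count of 8 went to 5 without control replicate 1, to 4 without Ep300 knockout replicate 2, to 4 without double knockout replicate 2, and to 14 without Ep300 knockout replicate 3. Col1a2, Itgb1, Itgb8 and Col4a5 were the calls lost in the first of these settings and in both that left 4.

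**Figure D4:**
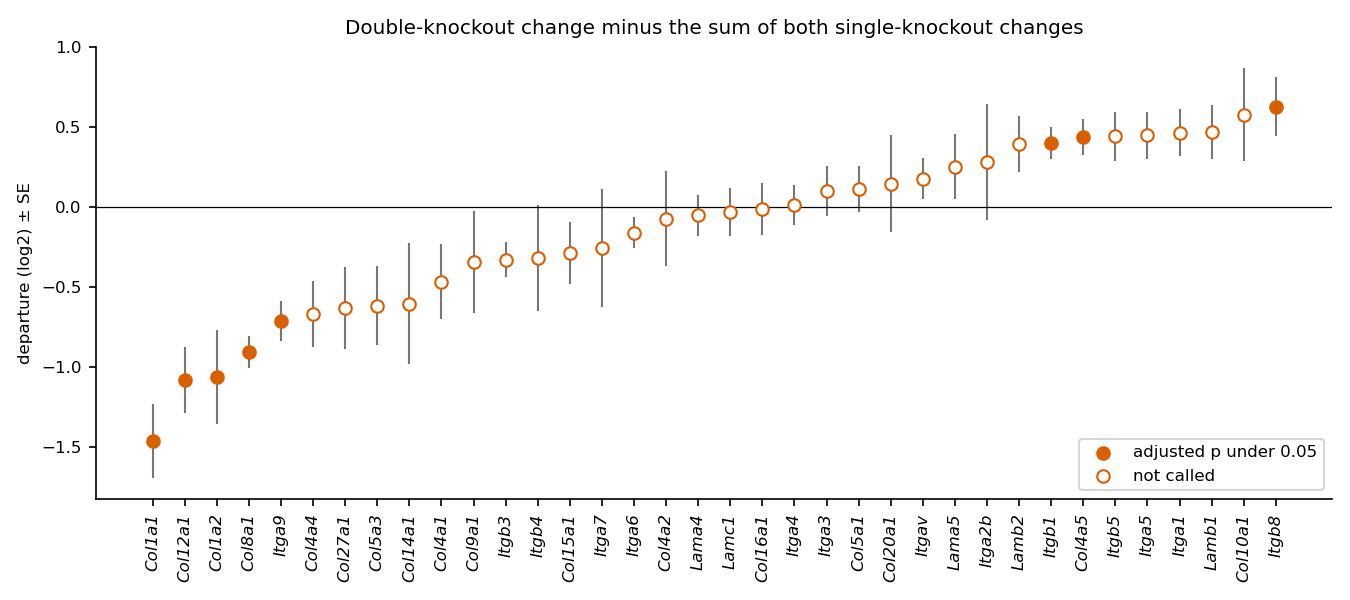
Departure of the double knockout log2 change from the sum of both single changes ± SE (y axis) for 36 tested members with a mean of at least 1 CPM in a group (x axis, ordered by value), filled where the adjusted p is under 0.05. Col1a1, Col12a1, Col1a2, Col8a1 and Itga9 lie below 0, and Itgb1, Col4a5 and Itgb8 above.

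Genes that build, crosslink or bind these chains were counted from lists chosen with earlier results of these data known. The background for these counts is that 16.1% of all genes tested were called with p300 loss, 3.13% with CBP loss and 49.4% with loss of both. Of 30 genes of collagen biosynthesis and crosslinking, 24 were tested, of which 8 rose and 4 fell in Ep300 knockout, 1 rose and 1 fell in Crebbp knockout, and 12 rose and 7 fell in double knockout (50%, 8.33% and 79.2% called). The crosslinking enzyme Loxl4 was at 3.24 ± 0.27 (adjusted p = 1.33e-07) in double knockout, and Loxl2 at 1.00 ± 0.12 (adjusted p = 8.97e-06). The procollagen proteinases Bmp1 (1.21 ± 0.08 (adjusted p = 1.34e-08)) and Adamts14 (1.38 ± 0.12 (adjusted p = 1.51e-07)) rose too. The lysyl hydroxylase Plod3 rose (1.17 ± 0.10 (adjusted p = 2.11e-07)), while its paralog Plod1 fell (-0.99 ± 0.07 (adjusted p = 1.46e-08)), as did the prolyl 3-hydroxylase P3h2 (-1.82 ± 0.11 (adjusted p = 4.54e-09)). The collagen chaperone Serpinh1 was slightly lower (-0.34 ± 0.08 (adjusted p = 0.00328)). In Crebbp knockout Plod1 was already lower, at -0.46 ± 0.07 (adjusted p = 0.00187), and the chaperone Fkbp10 higher, at 0.42 ± 0.10 (adjusted p = 0.0344).

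Of 24 basement membrane and matrix partners, 16 were tested. In Ep300 knockout 7 rose and 5 fell, in Crebbp knockout 1 rose and 1 fell, and in double knockout 8 rose and 6 fell. The shares called were 75%, 12.5% and 87.5%, against 16.1%, 3.13% and 49.4% of all genes tested. Fn1, fibronectin, the ligand of alpha 5 beta 1 and alpha 4 beta 1, averaged 51.6 CPM in control, 99.6 in Crebbp, 208 in Ep300 and 365 in double knockout. Its changes were 0.95 ± 0.13 (adjusted p = 0.000866), 2.01 ± 0.13 (adjusted p = 2.64e-08) and 2.82 ± 0.14 (adjusted p = 1.91e-10). The elastic-fibre protein Fbln5 was the gene lower in Crebbp knockout, at -0.55 ± 0.06 (adjusted p = 0.000142). Thbs1, thrombospondin 1, was at 2.09 ± 0.10 (adjusted p = 7.45e-10) in Ep300 and 3.11 ± 0.10 (adjusted p = 2.49e-12) in double knockout, and the netrin Ntn4 at 2.62 ± 0.26 (adjusted p = 3.12e-06) and 3.63 ± 0.25 (adjusted p = 1.65e-08). Nid1, which links laminin to collagen IV, fell, at -1.40 ± 0.13 (adjusted p = 1.44e-06) and -1.67 ± 0.13 (adjusted p = 6.17e-08), as did periostin, Postn, at -2.13 ± 0.20 (adjusted p = 1.22e-06) and -2.35 ± 0.20 (adjusted p = 1.33e-07).

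Of 31 integrin adaptors and other matrix receptors, 30 were tested. In Ep300 knockout 7 rose and 3 fell, in Crebbp knockout 1 fell, and in double knockout 14 rose and 5 fell. The shares called were 33.3%, 3.33% and 63.3%, against 16.1%, 3.13% and 49.4% of all genes tested. The share in Crebbp knockout is near the background. The focal adhesion proteins zyxin (Zyx, 1.57 ± 0.11 (adjusted p = 1.7e-08)), alpha-actinin 1 (Actn1, 1.55 ± 0.10 (adjusted p = 7.29e-09)) and vinculin (Vcl, 1.16 ± 0.09 (adjusted p = 5.66e-08)) rose in double knockout. The hyaluronan receptor Cd44 (-0.72 ± 0.07 (adjusted p = 4.94e-07)) and the parvin Parvb (-1.36 ± 0.10 (adjusted p = 3.41e-08)) fell. The adaptor lower in Crebbp knockout was tensin 1, Tns1, at -0.76 ± 0.17 (adjusted p = 0.0257). Of the 5 integrin alpha chains with lettered names outside the members, 2 were tested and none was called against control by edgeR.

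Markers of other cell types were read beside these results, since collagens are typical of fibroblasts. The 7 fibroblast markers summed to 5.11 to 6.63 CPM in control, 6.38 to 6.96 in Crebbp knockout, 5.78 to 7.43 in Ep300 knockout and 7.31 to 7.50 in double knockout. Of these markers, Dcn, Lum and Thy1 averaged at most 0.0101 CPM in any group. Acta2 was not tested either, and 3 of the 7 markers were tested. Of the 3 tested, Pdgfra (1.70 ± 0.18 (adjusted p = 2.24e-06)) and Fap (2.13 ± 0.57 (adjusted p = 0.006)) rose and Pdgfrb (-0.88 ± 0.11 (adjusted p = 1.63e-05)) fell in double knockout. None was called against control in either single knockout. The 6 immune markers summed to 1.70 to 2.17 CPM in control, 1.49 to 1.87 in Crebbp, 3.25 to 3.84 in Ep300 and 5.48 to 6.72 in double knockout. Cd68, the 1 tested, rose in Ep300 (0.90 ± 0.14 (adjusted p = 0.000225)) and double knockout (1.73 ± 0.13 (adjusted p = 5.48e-08)), while Adgre1 was at 0 in every group and Ptprc averaged at most 0.00801 CPM. The 5 endothelial markers summed to 0.743 to 0.962 CPM in control, 0.556 to 1.08 in Crebbp, 0.303 to 0.584 in Ep300 and 0.331 to 0.5002 in double knockout, with Vwf lower in Ep300 (-1.46 ± 0.39 (adjusted p = 0.017)) and double knockout (-1.91 ± 0.40 (adjusted p = 0.000992)). The 6 epithelial markers summed to 0.317 to 0.577, 0.151 to 0.493, 0.0417 to 0.155 and 0.0535 to 0.0945 CPM in the same order, with Cdh1 lower in Ep300 (-2.14 ± 0.49 (adjusted p = 0.00664)) and double knockout (-2.67 ± 0.51 (adjusted p = 0.000523)). As a sign of RNA quality, 4 histone genes were read, of a class whose main transcripts lack poly(A) tails. They summed to 700.1 to 826 CPM in control, 854 to 1000.3 in Crebbp, 795 to 887 in Ep300 and 664 to 718 in double knockout. Hist1h1e (-0.25 ± 0.07 (adjusted p = 0.0101)) and Hist1h2ab (-0.74 ± 0.11 (adjusted p = 7.2e-05)) fell in double knockout, Hist1h1e was higher in Crebbp knockout (0.31 ± 0.07 (adjusted p = 0.0338)), and 3 of the 4 departed from additivity. Summed melanocyte markers fell as summed collagen CPM rose from Crebbp through Ep300 to double knockout. The part of this, of the other markers and of the histone genes in the member changes was not tested.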

How the data were processed

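RNA of 12 B16F10 libraries was made with a stranded mRNA kit, per the labels' protocols. The authors deposited raw read counts per gene for 54752 Ensembl genes, with bcl2fastq, HISAT2, HTSeq and build mm10 named in the submitters' processing notes. For the strand setting, tool versions and gene models of that counting: not given in the sources used here. Symbols, positions and exon lengths of 54723 genes came from a GENCODE annotation of the same build.

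Genes with low counts were removed with filterByExpr (edgeR 4.0.16 in R 4.3.3), libraries were scaled by TMM, and group changes were tested with the robust quasi-likelihood F test of edgeR in 1 fit of all 12 libraries, with Benjamini-Hochberg adjustment over all 18434 tested genes of a comparison. SEs were derived from the F statistic. The script was tested on simulated data. The biological coefficient of variation was 9.46%. Replicates differed by more than counting noise, so none was a repeat deposit. Per-kb levels divide CPM by exon length, and likeness used log2(CPM + 0.5).

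Members, lists and tests were chosen with earlier results of these data known. Values in every library were given for members called in Crebbp knockout with at least 1 CPM, for the 8 largest called changes in Ep300 and in double knockout and the 4 largest departures from additivity with at least 5 CPM, and for Itgb1, Itgav, Itgb3, Itga4, Lamb1, Lamc1, Col4a1 and Col4a2. Other members given by library, among them Col1a2, Col14a1, Col5a3, Col4a5, Itgb8, Itga6, Lama4 and Lamb2, were chosen after their values were seen. Alternatives were RLE size factors, no filter, at least 1 CPM in 3 libraries, DESeq2 1.42.0, limma-voom (limma 3.58.1), the replicate block, only the groups compared, leaving out each library, and, added after the data were seen, offsets for exon length and GC content. Of the members, 1 enters the counts and sums and is not reported here by name.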

Additional observations from a re-analysis of the deposited data

Results flagged for a closer look

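In 8 members the change with the Ep300 knockout label differed between cells with and without the Crebbp knockout label. The test was the edgeR interaction test on the log2 scale (n = 3 libraries in each of 4 groups). Below, with and without Crebbp refer to that label only, since no fall of the Crebbp transcript was called in double knockout. For Col1a1 the effect was 2.40 with Crebbp and 0.94 without, a difference of -1.46 (adjusted p = 0.000985). For Col12a1 it was 2.87 and 1.79, a difference of -1.08 (adjusted p = 0.00409), and for Col8a1 3.35 and 2.45, a difference of -0.90 (adjusted p = 5.17e-05). These 3 collagens rose under both conditions. Falls were larger without Crebbp for Itga9, at -1.24 and -1.95 (difference -0.71, adjusted p = 0.00227), and for Col1a2, at -2.30 and -3.36 (difference -1.06, adjusted p = 0.0337). Rises were larger without Crebbp for Itgb1, at 0.29 and 0.69 (difference 0.40, adjusted p = 0.0194), and for Col4a5, at 0.27 and 0.71 (difference 0.44, adjusted p = 0.0240). Itgb8 changed by -0.07 with Crebbp and by 0.56 without (difference 0.63, adjusted p = 0.0406).

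The weaker of these calls depend on single libraries. That on Col1a2 ended without control replicate 1 or 3, Ep300 knockout replicate 2, Crebbp knockout replicate 1 or 2, or double knockout replicate 1 or 2 (adjusted p 0.0511 to 0.114). That on Itgb8 ended without control replicate 1 or 3, Ep300 knockout replicate 2, Crebbp knockout replicate 2 or 3, or double knockout replicate 1 or 2 (0.0594 to 0.109). That on Col4a5 ended without control replicate 1, Ep300 knockout replicate 2, Crebbp knockout replicate 3, or double knockout replicate 2 or 3 (0.0535 to 0.0700). That on Itgb1 ended without control replicate 1, Ep300 knockout replicate 2, or double knockout replicate 2 or 3 (0.0557 to 0.0667).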

How the results depend on the processing

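Over 126 pairs of a named member and a comparison, 82 were called. Of their 1634 values under the alternatives, 1571 kept the direction and the call, 63 lost the call and 0 reversed. Most named members were picked because they were called in these data, so this share does not describe all members. Among others, the Itgb8 call in Ep300 against Crebbp knockout ended in 11 of 20 alternatives. Those of Itga2b and Col16a1 in double against Crebbp knockout ended in 9 each. The 8 members called in Crebbp knockout fell to 5 when only its own groups were fitted, and ran from 5 to 8 when 1 library was left out. The 8 departures from additivity became 14 without a filter, 13 with DESeq2 and 18 with offsets for exon length and GC content, and ran from 4 to 14 when 1 library was left out. Over all genes, the Crebbp knockout comparison called 577 in edgeR, 257 with only its groups, 1265 with DESeq2, 1270 without a filter and 1419 with the offsets. The cause of these changes was not tested.

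Whether same-numbered libraries were prepared together is not given in the sources used here. Correlations between same-numbered libraries of different groups, after subtracting group means, ran from -0.17 to 0.107. They cannot decide whether the libraries are paired, since differently numbered libraries were not compared. The main fit held no replicate term. With the replicate block, 25 members were called in Ep300, 6 in Crebbp (without Col1a1 and Col5a1) and 35 in double knockout against control, 24 in double against Ep300, 32 in double against Crebbp, 21 in Ep300 against Crebbp knockout, and 6 in the departure from additivity. The block turned Col4a2 in Ep300 knockout to 0.0080.

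Of 868 values of the 44 pairs that were not called, 34 were called and 42 reversed, and none of those reversed was called. With the offsets, Lama5 was at -0.031 in Crebbp knockout, Lamc1 at -0.026 in double knockout, at -0.11 in double against Ep300 and -0.062 in double against Crebbp knockout, Itgav at -0.079 in double against Ep300 knockout, and the departures of Itga3, Itga4 and Col5a1 at -0.017, -0.097 and -0.040. Without 1 library each, these values crossed 0. In Ep300 knockout against control, Itgav ran from -0.030 to 0.12, Lamc1 ran from -0.013 to 0.19 and Col4a2 ran from -0.17 to 0.14. In Crebbp knockout against control, Lama5 ran from -0.028 to 0.22, Itgb1 ran from -0.00078 to 0.045 and Lamc1 ran from -0.015 to 0.15. In double knockout against control, Itgav ran from -0.012 to 0.14. In double against Ep300 knockout, Itga1 ran from -0.074 to 0.012, Itgav ran from -0.014 to 0.067 and Lamc1 ran from -0.041 to 0.16. In double against Crebbp knockout, Lamc1 ran from -0.0022 to 0.11 and Col4a2 ran from -0.29 to 0.11. In Ep300 against Crebbp knockout, Lamc1 ran from -0.088 to 0.11. In the departure from additivity, Itga4 ran from -0.063 to 0.087, Lamc1 ran from -0.11 to 0.085 and Col4a2 ran from -0.28 to 0.12. Depth limits the 22 untested members, and transcripts under about 1 CPM in every group rest on few reads.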

Other observations

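Among matrix partners not described above, Sparc, a collagen-binding matrix protein, rose at 0.75 ± 0.07 (adjusted p = 2.32e-06) in Ep300 and 1.09 ± 0.07 (adjusted p = 1.13e-08) in double knockout, and stood at -0.09 ± 0.07 (adjusted p = 0.578) in Crebbp knockout. Agrn, the heparan sulfate proteoglycan agrin, rose at 0.47 ± 0.10 (adjusted p = 0.00291) and 1.31 ± 0.10 (adjusted p = 3.69e-08). Spp1, osteopontin, a ligand of alpha v and of alpha 4 and alpha 9 integrins, was called in double knockout, at 0.42 ± 0.13 (adjusted p = 0.014), and not in Ep300 knockout, at -0.36 ± 0.13 (adjusted p = 0.0865). Npnt, nephronectin, a basement membrane ligand of the integrin alpha 8 chain, fell at -0.95 ± 0.13 (adjusted p = 0.000101) and -0.55 ± 0.13 (adjusted p = 0.00238). Fbln1, a fibulin of basement membranes and elastic fibres, fell at -1.14 ± 0.08 (adjusted p = 5.25e-08) and -1.79 ± 0.08 (adjusted p = 9.46e-11). Among adaptors, talin 1 (Tln1), which links integrin tails to actin, rose at 0.46 ± 0.12 (adjusted p = 0.0127) and 0.45 ± 0.12 (adjusted p = 0.00478), and its paralog talin 2 (Tln2) fell in double knockout, at -0.52 ± 0.11 (adjusted p = 0.00156).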
